A study of Chlorocebus sabaeus with 32 samples.

Results

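Axon guidance ligands and receptors were followed in RNA sequencing of the hippocampus of 32 vervet monkeys (Chlorocebus sabaeus), each labelled as younger than 1 year. Members were taken by gene symbol: semaphorins of classes 3 to 7, plexins, neuropilins, Slits, Robos, netrins, netrin-Gs, the netrin receptors DCC and UNC5A to UNC5D, draxin, Eph receptors and ephrins. The rule found 69 genes among 33994 gene rows, made up of 35 ligands and 34 receptors. They are 18 semaphorins, 9 plexins, 2 neuropilins, 3 Slits, 4 Robos, 3 netrins, 2 netrin-Gs, 5 netrin receptors, draxin, 9 EphA receptors, 5 EphB receptors and 8 ephrins. A further 3 genes of these families (SEMA4D, SEMA5A and NTN5) are listed in the table by gene number only and are not members.

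Guidance cues steer growing axons by binding receptors on the growth cone. Semaphorins act through plexins, with neuropilins as partners for most of the secreted class 3 proteins, Slits repel through Robos, and netrins attract through DCC and repel through UNC5 receptors. Ephrins and Eph receptors, the largest family of receptor tyrosine kinases, signal in both directions between touching cells. In the hippocampus these systems guide axons such as the mossy fibres to their layers and later act on spines and synapses.

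All animals share the species, tissue and age class, no animal is labelled as treated, and the series was made to look at change during development. The only label that divides the libraries is the title. Titles that share their opening 4 digits form block A (14 libraries), block B (16) and block C (2), in ascending order of those digits, whose meaning is not stated. Titles go on with a number, which was below 20000 in every library of block A, in 7 of block B and in neither of block C. Each title was taken as 1 animal, the replicate numbers used here only name a library, and where libraries share an animal the p-values measure technical spread. Gene counts ran from 9347635 to 19673621 per library, and the members took 0.483% to 0.691% of them. CPM are counts scaled to library size; they are not divided by gene length, so a level is compared here between libraries and not between genes.

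2 libraries stood apart in marker genes that are not members, and leaving them out was decided after the data had been seen. The summed CPM of 8 hippocampal neuron markers was 400 in block A replicate 1 and 340.3 in block B replicate 2, against 682 to 1124 in the other 30 libraries. Block A replicate 1 also had the lowest gene count, the highest share of reads outside genes (67.1%) and the highest microglial sum (306 CPM, against 136 to 235 in the 30). Block B replicate 2 had the highest sum of striatal and thalamic markers, 461 CPM against at most 178 in the 30. Of the 69 members, 13 had their highest and 18 their lowest level in block A replicate 1, and 5 and 9 in block B replicate 2. Results are therefore given with all libraries. Counts of members called between blocks A and B and on the score described below, and of pairs, are given again without these 2. So are the values of some members. The coefficients of variation and the lists of other pathway genes are given with all libraries only.

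Nearly every guidance gene was detected. Of the 69 members, 68 passed the count filter, and the exception was EPHA1, an EphA receptor, with a mean of 3.38 counts per library (lowest 1, highest 8). Among the receptors EPHA4, which binds ephrins of both classes, had 195, 706 and 981 CPM (lowest, median and highest of 32 libraries), and the Slit receptor ROBO1 had 83.99, 184 and 249.9 CPM. Among the ligands SLIT1, a secreted repellent, had 219, 489.8 and 698 CPM, SLIT2 78.1, 121 and 183 CPM and SLIT3 45.98, 99.6 and 139.9 CPM. Both neuropilins were present, NRP1 at 40.9, 232 and 347 CPM and NRP2 at 54.7, 147 and 214 CPM. All 9 plexins had a mean of at least 55.1 CPM, while the 3 netrins had means of 4.23 (NTN1), 10.7 (NTN3) and 19.9 CPM (NTN4).

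Variation between animals was widest for draxin and secreted semaphorins. The biological coefficient of variation, the spread between animals that is left after counting noise, had a median of 0.208 over the 68 members and 0.157 over all 19959 genes of this fit. The fit pooled all libraries without the block, so differences between blocks count as spread here. DRAXIN, a secreted repellent that binds DCC, had 0.624, the highest among the members, with 0.669, 2.65 and 9.43 CPM. SEMA3A, the classical collapse factor that acts through NRP1, had 0.538 with 3.79, 6.97 and 46.1 CPM; its highest library was block B replicate 2. SEMA3D (0.404), EFNA5 (0.378), SEMA3C (0.370) and NRP1 (0.366) followed, so 3 of the 6 most variable members were class 3 semaphorins. EFNA5, a membrane-anchored ephrin, had 3.51, 7.14 and 18.6 CPM, with the highest value in block A replicate 1, and NRP1 had its lowest in block B replicate 2. The steadiest members were PLXNB2, a receptor for class 4 semaphorins (0.106, 78.2, 94.04 and 117 CPM), SEMA4C (0.115), ROBO2 (0.116) and EPHA10, an Eph receptor without kinase activity (0.116). PLXNB2 is the main receptor of SEMA4C, and both lay below the median of all genes.

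**Figure D1:**
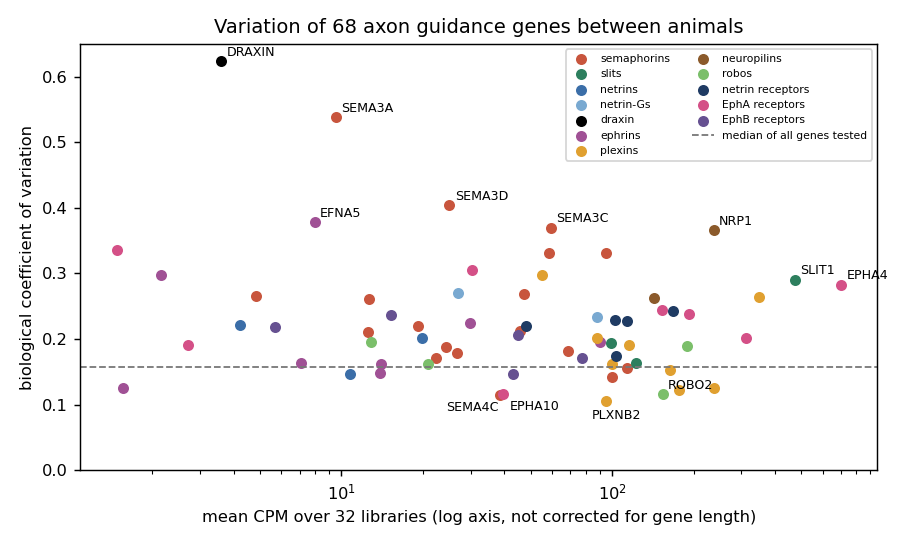
Biological coefficient of variation between animals (vertical axis) against mean CPM over 32 libraries (horizontal log axis, not corrected for gene length) for the 68 members that passed the filter, coloured by family. The dashed line is the median of all genes tested, 0.157; DRAXIN (0.624) and SEMA3A (0.538) lie farthest above it.

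Between blocks A and B, 12 members were at a higher level in B and 1 was at a lower level. Of 68 members tested, 12 were higher (background: 7.11% of 23977 genes) and 1 was lower (background: 5.35%) by edgeR's quasi-likelihood test at a Benjamini-Hochberg adjusted p below 0.05 over all genes, and 12.5% of all genes passed in either direction. The median log2 difference was 0.051 over the members and 0.0054 over all genes. By role, 8 of 35 ligands and 4 of 33 receptors tested were higher, and the lower member was a ligand. All differences below are log2 values, block B minus block A, ± standard error, with adjusted p-values of that edgeR test. In these bulk samples fewer cells of a type and less RNA per cell cannot be told apart.

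The ligands that differed came from the semaphorins, netrins, ephrins and draxin. DRAXIN had 0.669, 2.04 and 3.80 CPM in block A and 1.57, 3.51 and 9.43 CPM in block B (lowest, median and highest). 15 of 16 libraries of block B lay above the median of block A, 6 lay above its highest library, and the difference was 1.29 ± 0.26 (adjusted p = 0.00167). With the immature neuron score, described below, in the fit the DRAXIN difference was -0.10 (adjusted p = 0.922). SEMA4G, a membrane-bound semaphorin, had 12.5, 15.8 and 21.02 CPM in block A and 14.1, 21.1 and 34.9 CPM in block B. Its groups overlapped, with 15 of 16 libraries above the median of block A, and differed by 0.41 ± 0.10 (adjusted p = 0.00552). SEMA3C, which signals through both neuropilins, had 21.4, 44.8 and 78.9 CPM in block A and 29.8, 64.7 and 109 CPM in block B, 14 of 16 above that median, and differed by 0.54 ± 0.16 (adjusted p = 0.0252). SEMA3A had 3.79, 6.35 and 14.5 CPM in block A and 4.34, 9.41 and 46.1 CPM in block B and differed by 0.88 ± 0.26 (adjusted p = 0.0264). The top SEMA3A value belongs to replicate 2 and the next, 25.6 CPM, to replicate 8, whose choroid plexus markers summed to 420.04 CPM against a median of 7.42 CPM over all libraries; the part of those cells was not tested. Without replicate 2 of block B the SEMA3A difference was 0.58 (adjusted p = 0.0522). Without both libraries that stood apart it was 0.70 ± 0.19 (adjusted p = 0.0109).

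NTN1, the founding netrin, had 2.66, 3.44 and 5.13 CPM in block A and 2.89, 4.88 and 8.44 CPM in block B, and the difference was 0.43 ± 0.11 (adjusted p = 0.0116). 15 of 16 libraries lay above the median of block A; the highest was again replicate 2, and without the 2 libraries the difference was 0.37 ± 0.10 (adjusted p = 0.0113). NTN4, a netrin related to laminins of the basement membrane, had 12.3, 17.9 and 23.8 CPM in block A and 14.2, 21.5 and 30.98 CPM in block B and differed by 0.30 ± 0.10 (adjusted p = 0.0425). This call was fragile: NTN4 passed in 13 of 30 fits that left out 1 library, and the highest adjusted p was 0.0882, without block B replicate 14. EFNA2, a lipid-anchored ephrin, had 1.10, 1.58 and 2.13 CPM in block A and 1.68, 2.22 and 3.88 CPM in block B. All 16 libraries of block B lay above the median of block A and 9 above its highest, a difference of 0.63 ± 0.14 (adjusted p = 0.0035). EFNB2, a transmembrane ephrin also made by arterial endothelium, had 17.7, 25.1 and 42.01 CPM in block A and 21.9, 34.2 and 42.3 CPM in block B and differed by 0.36 ± 0.11 (adjusted p = 0.0238). SEMA6B, a transmembrane semaphorin that binds class A plexins, was the lower member, with 103, 128 and 148 CPM in block A and 75.9, 109 and 137 CPM in block B, 15 of 16 below the median of block A, and a difference of -0.22 ± 0.070 (adjusted p = 0.0321). It missed the threshold when block A replicate 2, 4 or 7 was left out, with an adjusted p of at most 0.0591.

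Of the receptors, EphB receptors, a plexin and a Robo were higher. EPHB4, the partner of EFNB2 in blood vessels, had 3.38, 4.51 and 6.19 CPM in block A and 5.16, 5.94 and 8.73 CPM in block B. All 16 libraries of block B lay above the median of block A, 7 lay above its highest, and the difference was 0.47 ± 0.090 (adjusted p = 0.00124). EPHB3 had 9.46, 12.2 and 18.9 CPM in block A and 9.87, 17.3 and 21.6 CPM in block B, 15 of 16 above that median, and differed by 0.46 ± 0.10 (adjusted p = 0.00279). PLXNC1, the receptor of SEMA7A, had 79.3, 100.5 and 132 CPM in block A and 84.5, 127 and 157 CPM in block B, 14 of 16 above that median, and differed by 0.37 ± 0.076 (adjusted p = 0.00217). ROBO3, the Robo that governs midline crossing of commissural axons, had 15.03, 18.8 and 21.7 CPM in block A and 16.9, 21.96 and 35.3 CPM in block B, with 10 libraries above the highest of block A, and differed by 0.26 ± 0.076 (adjusted p = 0.0224). ROBO1 (0.23), ROBO2 (0.091) and ROBO4 (0.17) did not pass, nor did any of the 8 EphA receptors, 5 netrin receptors, 2 neuropilins, 3 Slits or 2 netrin-Gs. Of the 12 higher members, 6 lay above the block B median in both libraries of block C, 3 lay below it in both (NTN1, NTN4 and EFNB2) and 3 were split. The 2 libraries had 8.82 and 6.02 CPM of DRAXIN, 6.81 and 8.72 CPM of EPHB4 and 141 and 146 CPM of PLXNC1, above those medians, and 4.57 and 3.57 CPM of NTN1, 20.6 and 21.3 CPM of NTN4 and 29.8 and 27.9 CPM of EFNB2, below them.

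**Figure D2:**
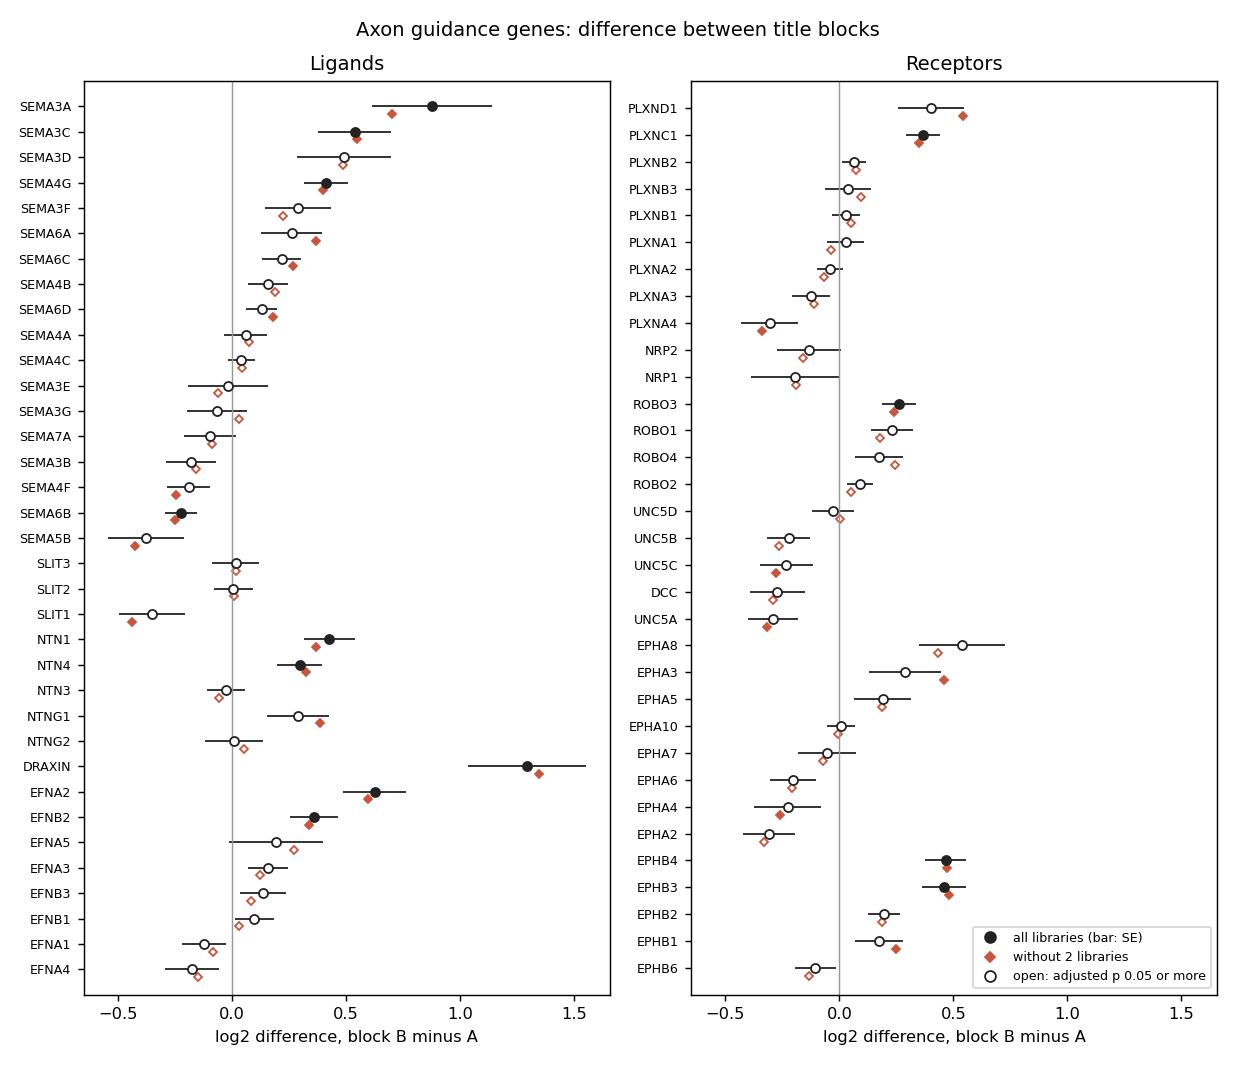
Log2 difference of block B minus block A for 35 ligands (left) and 33 receptors (right), ordered within families. Black points with SE bars are the fit to all libraries and red diamonds the fit without block A replicate 1 and block B replicate 2; filled symbols have an adjusted p below 0.05, which holds for 13 members with all libraries and 27 without the 2.

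Leaving out the 2 libraries that stood apart changed the count more than any of the scalings. Without them 19 members were higher (background: 8.16% of 23818 genes) and 8 were lower (background: 7.68%), and the 27 held all 13 of the first fit with the same direction. Leaving out block A replicate 1 alone gave 19 higher and 9 lower (background: 2112 and 1758 of 23858 genes). These 14 added members are named here after their values were seen. Higher were EPHA3, EPHB1, NTNG1, PLXND1, SEMA6A, SEMA6C and SEMA6D, and lower were EPHA4, PLXNA4, SEMA4F, SEMA5B, SLIT1, UNC5A and UNC5C.

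PLXND1, the receptor of SEMA3E in vessels and axon tracts, had 32.2, 41.7 and 123 CPM in block A and 41.2, 57.7 and 90.4 CPM in block B, and the 122.6 CPM belonged to block A replicate 1. Without the 2 libraries PLXND1 had 32.2, 41.5 and 56.5 CPM in 13 libraries of block A and 41.2, 56.6 and 90.4 CPM in 15 of block B, and the difference moved from 0.40 ± 0.15 (adjusted p = 0.0634) to 0.54 ± 0.10 (adjusted p = 0.000597). EPHA3 had 76.3 CPM in block A replicate 1 and at most 33.3 CPM in the other 13 libraries of that block. Its difference moved from 0.29 ± 0.16 (adjusted p = 0.239) to 0.46 ± 0.11 (adjusted p = 0.00408). Members that were lower in block B had low values in the same library. SLIT1 had 219, 580.0 and 698 CPM in block A and 242, 438 and 624 CPM in block B; block A replicate 1 had 219 CPM, and replicate 5 of that block 245 CPM. The SLIT1 difference went from -0.35 ± 0.14 (adjusted p = 0.102) to -0.44 ± 0.13 (adjusted p = 0.0187). The netrin receptor UNC5A had 54.2 CPM in block A replicate 1, 59.1 CPM in block B replicate 2 and 62.2 to 140.2 CPM elsewhere in the 2 blocks. Its difference was -0.29 ± 0.11 (adjusted p = 0.0739) with all libraries and -0.32 ± 0.085 (adjusted p = 0.0103) without the 2. UNC5C moved from -0.23 ± 0.12 (adjusted p = 0.191) to -0.28 ± 0.090 (adjusted p = 0.0334), PLXNA4, a coreceptor of class 3 semaphorins, from -0.31 ± 0.13 (adjusted p = 0.102) to -0.34 ± 0.10 (adjusted p = 0.0233).

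**Figure D3:**
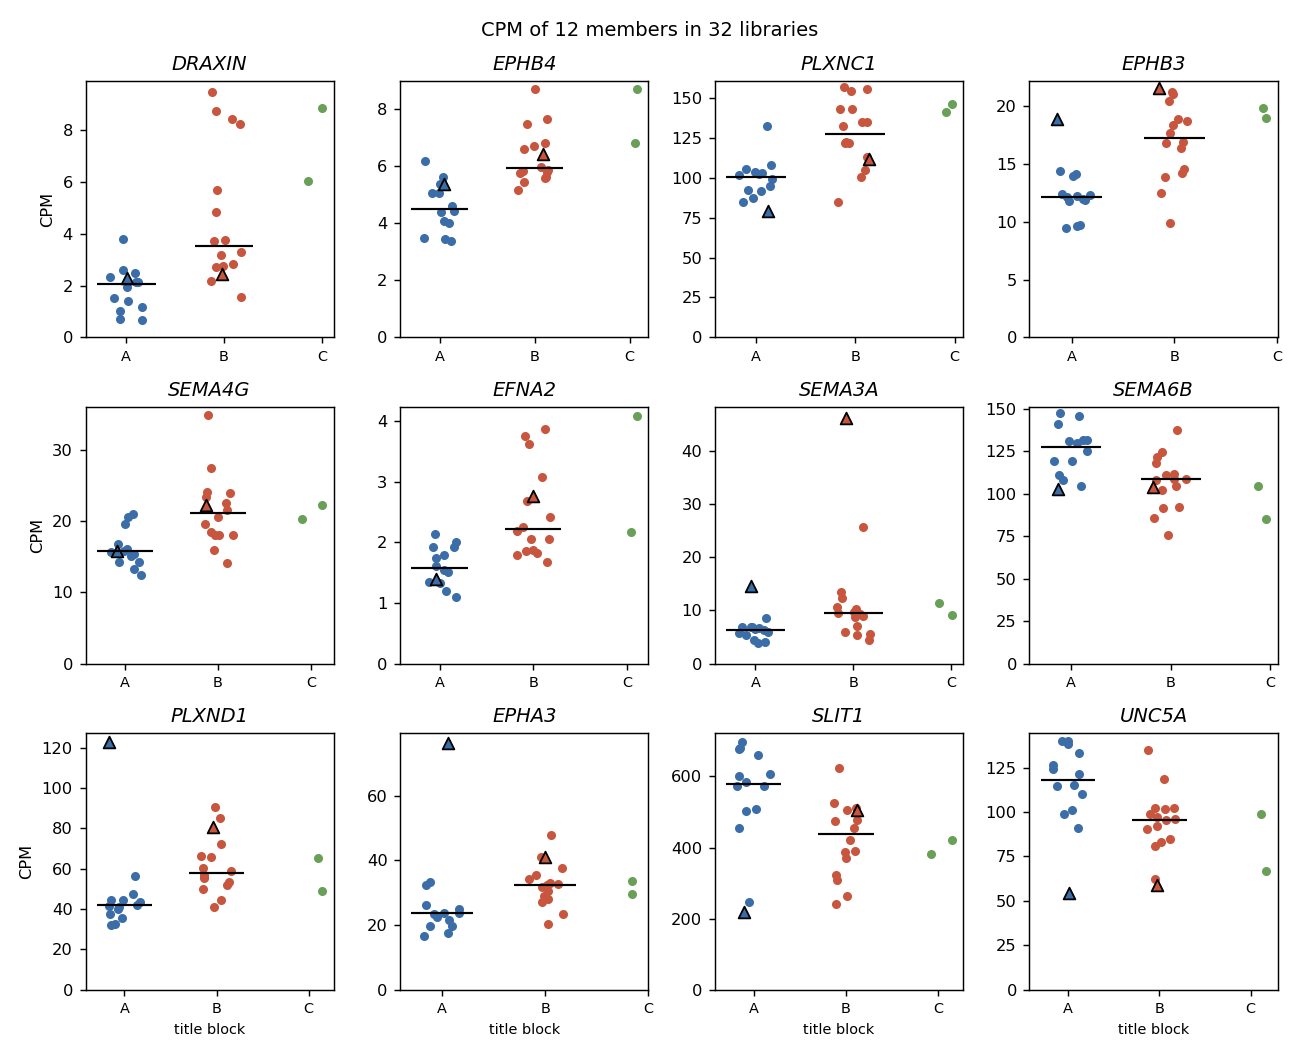
CPM of 12 members in each of 32 libraries by title block (A, n = 14; B, n = 16; C, n = 2); lines are medians and triangles mark the 2 libraries that stood apart. In PLXND1 and EPHA3 the triangle of block A is the highest library (122.6 and 76.3 CPM), in SLIT1 and UNC5A the lowest (219 and 54.2 CPM).

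Other features of the libraries moved with the block. The immature neuron score, described below, had a mean of -0.86 ± 0.47 (SD, n = 14) in block A and 0.56 ± 0.73 (SD, n = 16) in block B, and 10 of its 11 genes tested were higher in block B. The summed CPM of 6 meningeal and fibroblast markers ran from 77.7 to 506 (median 99.7) in block A and from 127 to 436 (median 172) in block B; all 6 were detected and 1 was higher. Of the other marker lists 3 of 7 progenitor genes, 3 of 5 oligodendrocyte precursor genes, 2 of 7 striatal and thalamic genes, 1 of 6 endothelial genes and 1 of 4 microglial genes were higher, and no gene of these lists was lower. None of the 8 hippocampal neuron, 7 mature oligodendrocyte, 6 astrocyte or 5 choroid plexus markers passed. When the immature neuron score entered the edgeR fit as a covariate, 0 members and 1 gene passed (0.00417%), and with the meningeal and fibroblast score 0 members and 3 genes (0.0125%); at an unadjusted p below 0.05 these fits had 1910 and 2695 genes. Given the immature neuron score the difference was -0.0015 (adjusted p = 1) for EFNA2 and -0.049 (adjusted p = 0.93) for NTN4. Both scores were higher in block B, so block and score cannot be fully told apart. Among libraries with title numbers below 20000 only (14 against 7), 9 members were higher (background: 3.09% of 22203 genes), 8 of them among the 12. With the number set as a covariate 11 were higher (background: 3.56%), again 8 of them among the 12. In both of these fits EFNB2, NTN4, ROBO3, SEMA3C and the lower member SEMA6B missed the threshold, with adjusted p from 0.0661 (EFNB2) to 0.253 (NTN4) given the number set. DESeq2 called 16 members in either direction (background: 14.8%).

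Within block B no member passed in edgeR between libraries with high and low title numbers, while more members had lower than higher values in those with high numbers. Of 68 members 0 passed (background: 0% of 21488 genes) in edgeR, and 11 members and 3023 genes had an unadjusted p below 0.05; limma-trend also called 0. The difference, high minus low, was positive in 18 of 68 members (26.5%), in 13 of 35 ligands and 5 of 33 receptors, against 50.1% of all genes. Its median was -0.084 over the members and 0.00043 over all genes. DESeq2 called 183 genes (0.852%) and 2 members, both class A plexins that serve class 3 and class 6 semaphorins. PLXNA2 had 178 to 223 CPM (median 189.9) in 7 libraries with low numbers and 139 to 174 CPM (median 165) in 9 with high numbers, so the groups did not overlap. Its difference, high minus low, was -0.26 ± 0.059 (edgeR adjusted p = 0.140, DESeq2 adjusted p = 0.0102). PLXNA1 had 172 to 219 CPM (median 179) against 132 to 184 CPM (median 142), a difference of -0.28 ± 0.074 (edgeR adjusted p = 0.152, DESeq2 adjusted p = 0.0450). The median share of reads in no gene feature was 59.7% in the libraries with low numbers and 55.0% in those with high numbers. With that share as a covariate edgeR called 0 members, and 922 genes had an unadjusted p below 0.05; its part in the DESeq2 calls was not tested.

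Because all animals carry the same age label, members were also set against the immature neuron score, the mean of z-scored log2 CPM of 11 genes of young neurons such as DCX, SOX11 and STMN2, scaled to an SD of 1. No member is a scoring gene, and the collapsin response mediators were kept out of the score because they act in semaphorin signalling. The slope, in log2 units per SD of score, was positive in 17 of 68 members (background: 17.1% of 19959 genes) and negative in 5 (background: 17.4%) at an adjusted p below 0.05 in edgeR, and 34.5% of all genes passed in either direction. The members' median slope was 0.052 and that of all genes -0.00065. Score and members come from the same libraries and share their depth, and the score differs between blocks, so slopes of members are also given with the block in the fit.

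DRAXIN had the steepest slope of the members, 0.87 ± 0.074 (adjusted p = 5.45e-11). The library lowest in score (-1.64) had 2.29 CPM and the highest (1.93) 8.82 CPM. With the block in the fit the DRAXIN slope was 0.92 (adjusted p = 1.24e-05), and within block B alone 0.97 (adjusted p = 0.000199). EFNA2 followed with 0.42 ± 0.048 (adjusted p = 1.99e-08), and 0.43 (adjusted p = 0.000597) with the block. Over 32 libraries it ran 1.10, 1.93 and 4.08 CPM (lowest, median, highest), and its slope was 0.42 (adjusted p = 0.183) within block A and 0.40 (adjusted p = 0.0308) within block B. Of the semaphorins SEMA3C had 0.41 ± 0.068 (adjusted p = 1.53e-05), SEMA3D 0.31 ± 0.10 (adjusted p = 0.0119), SEMA4G 0.22 ± 0.045 (adjusted p = 0.000215) and SEMA6C 0.17 ± 0.038 (adjusted p = 0.000699). With the block in the fit SEMA3C passed at 0.36 (adjusted p = 0.0324), but not when the 2 libraries were also left out (0.29, adjusted p = 0.0944). SEMA3D, SEMA4G and SEMA6C did not pass with the block. When the 2 libraries were also left out, SEMA6C passed and SEMA3D and SEMA4G did not. NTN4 had a slope of 0.19 ± 0.042 (adjusted p = 0.000647), 0.23 (adjusted p = 0.029) with the block and 0.22 (adjusted p = 0.051) with the block and without the 2 libraries. The ephrins EFNB1, EFNB2 and EFNB3 had slopes of 0.11, 0.16 and 0.13, with adjusted p of 0.0229, 0.0193 and 0.0261. None of the 3 passed with the block, at 0.16 (adjusted p = 0.0885), 0.11 (adjusted p = 0.423) and 0.19 (adjusted p = 0.111). When the 2 libraries were also left out, EFNB1 passed with the block and EFNB2 and EFNB3 did not.

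Receptors with positive slopes were again EphB receptors, PLXNC1 and Robos. EPHB4 had 0.27 ± 0.042 (adjusted p = 7.42e-06), EPHB3 0.24 ± 0.046 (adjusted p = 0.000121) and EPHB2 0.16 ± 0.027 (adjusted p = 2.71e-05); of these EPHB2, an excitatory synapse receptor that binds NMDA receptors, passed with the block in the fit, at 0.18 (adjusted p = 0.0078). EPHB2 ran 31.7, 42.2 and 60.5 CPM over the 32 libraries. With the block and without the 2 libraries, EPHB3 and EPHB4 passed as well. PLXNC1 had 0.23 ± 0.030 (adjusted p = 3.59e-07), and 0.21 (adjusted p = 0.00767) with the block. ROBO1 had 0.21 ± 0.035 (adjusted p = 1.55e-05), and with the block 0.29 (adjusted p = 0.000678). It was the one member called within block A alone (0.54, adjusted p = 0.0323; background there: 0.432% of 19657 genes with a positive slope), but block A replicate 1 had both the lowest score and the lowest ROBO1, 84.0 CPM against 143.7 CPM or more elsewhere. Over all blocks, without the 2 libraries and without the block in the fit, the ROBO1 slope was 0.17 (adjusted p = 3.48e-06). The slope within block A was not fitted without its replicate 1. ROBO3 had 0.13 ± 0.038 (adjusted p = 0.0091) and ROBO2 0.072 ± 0.026 (adjusted p = 0.0296). With the block neither passed, at 0.052 (adjusted p = 0.635) and 0.092 (adjusted p = 0.181). When the 2 libraries were also left out, ROBO2 passed with the block and ROBO3 did not.

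The members that fell with the score were the netrin receptors UNC5B and UNC5A and the semaphorins SEMA6B, SEMA3B and SEMA3G. UNC5B, which in vessels also restrains sprouting, had 25.7, 47.5 and 71.9 CPM and a slope of -0.23 ± 0.045 (adjusted p = 0.000116). Its 3 lowest libraries were the 2 of block C (30.01 and 28.6 CPM) and the block B library with the highest score of that block (25.7 CPM). With the block the slope was -0.23 (adjusted p = 0.0326); within block B it was -0.33 (adjusted p = 0.00421) and within block A -0.0045 (adjusted p = 0.990). SEMA6B had -0.16 ± 0.030 (adjusted p = 5.62e-05), and -0.16 (adjusted p = 0.0371) with the block, and SEMA3B -0.17 ± 0.051 (adjusted p = 0.00915), but -0.20 (adjusted p = 0.112) with the block. UNC5A (-0.14, adjusted p = 0.0478) passed in 13 of 32 fits that left out 1 library, and SEMA3G (-0.18, adjusted p = 0.0316) in 27. With the block in the fit neither passed, at -0.014 (adjusted p = 0.943) for UNC5A and -0.26 (adjusted p = 0.0958) for SEMA3G. The difference of slopes between the blocks was tested over 30 libraries, and 0 members and 0 of 20037 genes passed in edgeR (0%) or limma-trend; 6 members and 1328 genes had an unadjusted p below 0.05.

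**Figure D4:**
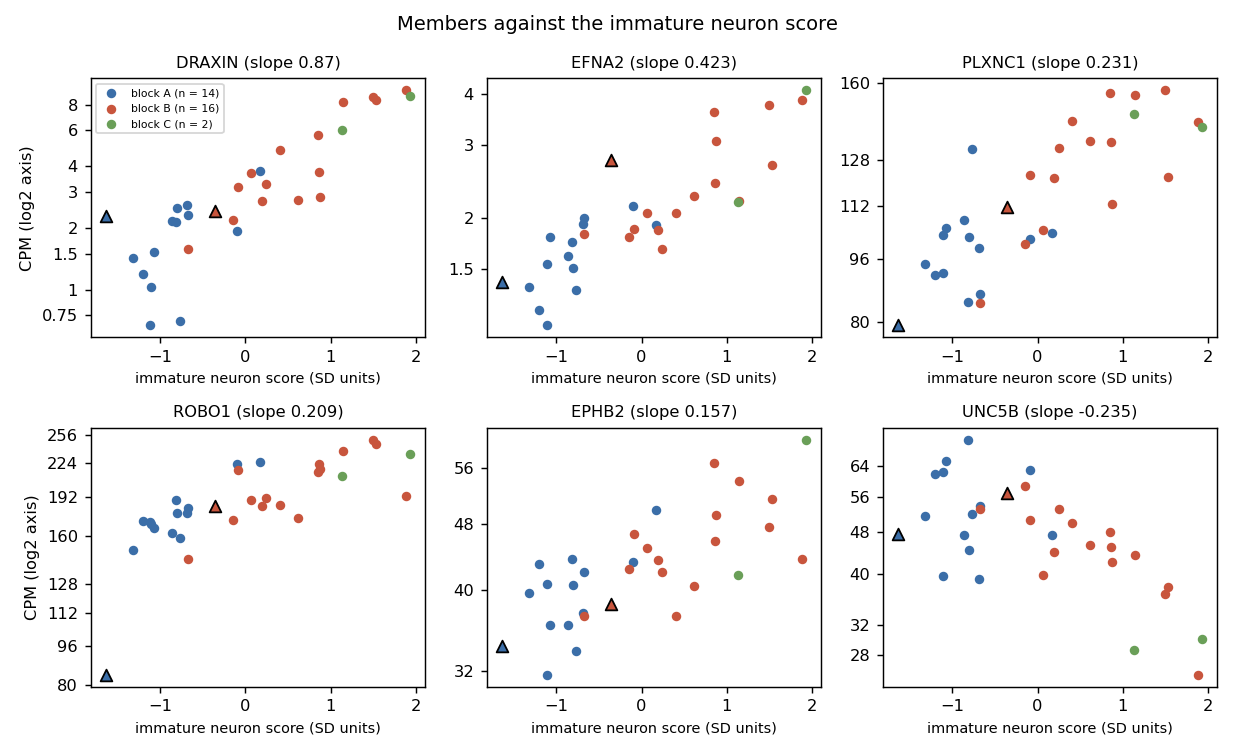
CPM of 6 members (vertical log2 axis) against the immature neuron score in SD units (horizontal) in 32 libraries, coloured by title block; triangles mark the 2 libraries that stood apart. DRAXIN runs from 0.669 to 9.43 CPM and rises with the score, and UNC5B runs from 71.9 down to 25.7 CPM.

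With the block in the fit 7 members had a positive slope (background: 5.78%) and 3 a negative one (background: 6.60%); 9 of these 10 were among the 22, and the tenth was PLXNB1, a class 4 semaphorin receptor, at -0.14 (adjusted p = 0.0295). Without the 2 libraries 24 members had a positive slope (background: 18.3% of 20076 genes) and 7 a negative one (background: 17.9%), and 20 of the 31 were among the first 22; EFNB3 and SEMA3G no longer passed. Without the 2 libraries and with the block 14 members passed (background: 12.3%), 12 of them among the 22. These 12 held EFNB1, EPHB3, EPHB4, ROBO2 and SEMA6C, which had not passed with the block over all libraries. Within block B alone 6 members had a positive slope (background: 2.29% of 19268 genes) and 2 a negative one (background: 3.22%). Among other marker lists, 5 of 6 meningeal and fibroblast genes, 4 of 5 oligodendrocyte precursor genes, 4 of 7 progenitor genes and 3 of 6 endothelial genes rose with the score. In the other direction 2 of 6 astrocyte and 2 of 7 mature oligodendrocyte genes fell. Of 4 microglial genes 1 rose and 2 fell, as did 1 and 2 of 7 striatal and thalamic genes, and of the hippocampal neuron markers 0 of 7 tested passed. The part of these cells in the members' slopes was not tested, except for the meningeal and fibroblast score. With the meningeal and fibroblast score as a covariate 9 members had a positive and 4 a negative slope (backgrounds: 7.80% and 8.44%).

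The proteins that act inside the cell below these receptors were described from a list of 40. Between the blocks 9 of the 40 were higher (background: 7.11%) and 5 lower (background: 5.35%), with a median of 0.012. DPYSL3 and DPYSL5, collapsin response mediators that carry semaphorin signals to the cytoskeleton, had 118, 170.2 and 406 CPM in block A and 162, 333 and 583 CPM in block B (DPYSL3) and 56.5, 77.4 and 129 CPM in block A and 66.97, 146 and 247 CPM in block B (DPYSL5). They differed by 0.97 ± 0.17 (adjusted p = 0.000694) and 0.84 ± 0.15 (adjusted p = 0.000757). With the immature neuron score in the fit these differences were 0.021 (adjusted p = 0.977) and 0.19 (adjusted p = 0.769). FARP2, an exchange factor bound to class A plexins, was lower, with 48.6, 53.2 and 57.3 CPM in block A and 34.4, 43.2 and 54.96 CPM in block B and a difference of -0.31 ± 0.056 (adjusted p = 0.000712). Given the score the FARP2 difference was -0.20 (adjusted p = 0.588). On the score 10 of 40 had a positive slope (background: 17.1%) and 7 a negative one (background: 17.4%). DPYSL3 had 0.68 ± 0.044 (adjusted p = 1.25e-13), RND1, a GTPase that binds plexins, 0.26 ± 0.028 (adjusted p = 6.71e-09) and DPYSL5 0.51 ± 0.056 (adjusted p = 1.4e-08). With the block in the fit these slopes were 0.66 (adjusted p = 3.22e-07), 0.24 (adjusted p = 0.00123) and 0.43 (adjusted p = 0.00228).

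A second list held 23 coreceptors and neighbouring guidance systems. Between the blocks 2 were higher (background: 7.11%) and 1 lower (background: 5.35%), with a median of 0.022, so the shares were near those of all genes. The adhesion protein CHL1, a partner of NRP1, had 442, 611 and 758 CPM in block A and 501, 799 and 1054 CPM in block B and differed by 0.39 ± 0.10 (adjusted p = 0.0086), and RGMB, a ligand of the DCC relative neogenin, by 0.25 ± 0.061 (adjusted p = 0.0068). NRCAM, an adhesion protein of neuropilin complexes and axon segments, had 506, 682 and 727 CPM in block A and 407, 538 and 706 CPM in block B and differed by -0.30 ± 0.058 (adjusted p = 0.00154). On the score 3 of 23 had a positive slope (background: 17.1%) and 4 a negative one (background: 17.4%): CHL1 had 0.30 ± 0.031 (adjusted p = 3.97e-09) and L1CAM 0.15 ± 0.034 (adjusted p = 0.000693), against -0.47 ± 0.064 (adjusted p = 7.75e-07) for CNTN2, an axonal adhesion protein also found at myelinated fibres, and -0.19 ± 0.028 (adjusted p = 2.37e-06) for NRCAM. The slopes of this list are given without the block in the fit.

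Finally, 18 textbook pairs of a ligand and its receptor were correlated over the 32 animals in log2 CPM, with two-sided permutation tests of 100000 resamples adjusted over the 18 pairs. By Pearson's r 8 pairs passed at an adjusted p below 0.05, 3 with a positive and 5 with a negative r, and 5 pairs passed by Spearman's rho. Pairs of other genes were not correlated, so no background share stands beside these counts. Whether they are particular to ligands and their receptors was not tested. Without the 2 libraries that stood apart 2 pairs passed by r and 1 by rho, and without the 2 animals farthest from the median in the ligand 1 passed. Within block A alone 0 of the 18 pairs passed, and within block B alone 4. Those 4 were EFNB3 with EPHB2, SEMA3A with NRP1, SEMA3F with NRP2 and SEMA3E with PLXND1. Without block B replicate 2 the pairs passing in block B were EFNB3 with EPHB2, SLIT3 with ROBO1 and SEMA6A with PLXNA2. Their r was 0.70, 0.74 and 0.69, with adjusted p of 0.0311, 0.0214 and 0.0311.

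EFNB3 and its receptor EPHB2 were higher in the same animals. EFNB3 ran 34.3, 93.4 and 136 CPM (lowest, median and highest), and r with EPHB2 was 0.59 (permutation p = 0.00026, adjusted p = 0.00234), with a rho of 0.70 (permutation p = 1e-05, adjusted p = 0.00018), the smallest p these permutations can give for rho. Without the 2 libraries r was 0.63 (adjusted p = 0.00432), without the 2 animals farthest in EFNB3 0.56 (adjusted p = 0.0227), within block A 0.45 (adjusted p = 0.240) and within block B 0.73 (adjusted p = 0.0170). SEMA4D, which is listed by gene number, and PLXNB1 had an r of 0.57 (permutation p = 0.00075, adjusted p = 0.0027), with a rho of 0.38 (permutation p = 0.0332, adjusted p = 0.0854); r was 0.52 (adjusted p = 0.0295) without the 2 libraries and 0.34 (adjusted p = 0.234) without the 2 animals farthest in SEMA4D, so the relation rests partly on those animals.

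The negative relations of semaphorins with their receptors did not pass once the 2 libraries that stood apart were left out. SEMA3A and NRP1 had an r of -0.65 (permutation p = 0.00063, adjusted p = 0.0027), with a rho of -0.35 (permutation p = 0.0528, adjusted p = 0.119). Block B replicate 2 combined the highest SEMA3A of all libraries, 46.1 CPM, with the lowest NRP1, 40.9 CPM, and without the 2 libraries r was -0.30 (adjusted p = 0.213). SEMA3F and NRP2 went from -0.66 (permutation p = 0.00043, adjusted p = 0.00258), with a rho of -0.48 (permutation p = 0.00588, adjusted p = 0.0353) to -0.31 (adjusted p = 0.213). Without the 2 libraries their r was 0.30 within block A (adjusted p = 0.689) and -0.49 within block B (adjusted p = 0.150). SEMA3E and PLXND1 had an r of -0.64 (permutation p = 0.00018, adjusted p = 0.00234), with a rho of -0.51 (permutation p = 0.00327, adjusted p = 0.0294). Block A replicate 1 had the lowest SEMA3E, 19.1 CPM, and the highest PLXND1, 122.6 CPM, and without the 2 libraries r was -0.37 (adjusted p = 0.132). This pair kept its sign in both blocks without them. There r was -0.51 within block A (adjusted p = 0.664) and -0.56 within block B (adjusted p = 0.110). NTN1 with DCC (r = -0.54, permutation p = 0.0012, adjusted p = 0.0036) and NTN1 with UNC5C (r = -0.42, permutation p = 0.0183, adjusted p = 0.0412) had r of -0.44 and -0.38 without the 2 libraries, with adjusted p of 0.0677 and 0.132. SLIT3 and ROBO1 had an r of 0.52 (permutation p = 0.00928, adjusted p = 0.0239), with a rho of 0.39 (permutation p = 0.0295, adjusted p = 0.0854), and 0.45 (adjusted p = 0.0677) without the 2 libraries. The other 10 pairs, among them SLIT1 and SLIT2 with ROBO1 and ROBO2, SEMA7A with PLXNC1 and DRAXIN with DCC, did not pass over all libraries, with r between -0.22 and 0.30.

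**Figure D5:**
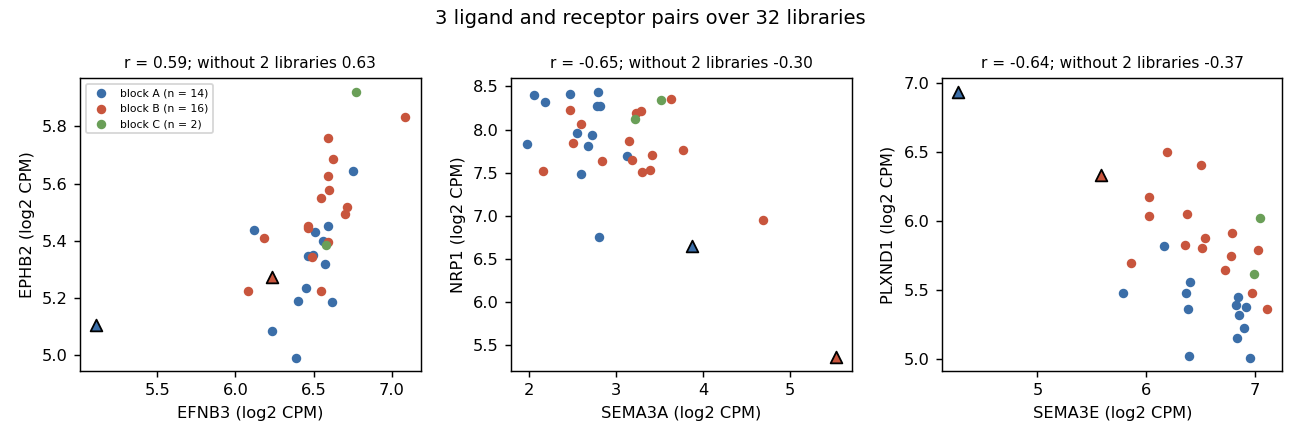
Log2 CPM of a receptor (vertical) against that of its ligand (horizontal) in 32 libraries for 3 pairs, coloured by title block; triangles mark the 2 libraries that stood apart. For EFNB3 and EPHB2 r is 0.59 with and 0.63 without these 2, while for SEMA3A and NRP1 it goes from -0.65 to -0.30 and for SEMA3E and PLXND1 from -0.64 to -0.37.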

How the data were processed

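RNA of the hippocampus was depleted of ribosomal RNA and made into strand-preserving libraries, per the labels' protocols. The deposited values are counts of reads per gene for 32 libraries without normalization; STAR and HTSeq were used per the submitters' processing notes. Tool versions, genome build, gene annotation and strand setting were not given in the sources used here, so overlapping genes are uncertain. Titles begin with 2009 (block A), 2010 (block B) or 2011 (block C). The 5 rows outside genes were left out. SEMA4D was matched by gene number in the RefSeq gene table of assembly mChlSab1.0.hap1.

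The members and gene lists were chosen with earlier results of these data known. Counts were scaled by TMM and tested over the whole table with edgeR 4.0.16 (quasi-likelihood test, filterByExpr with a minimum count of 10, Benjamini-Hochberg adjustment, threshold 0.05) under R 4.3.3. SE is the log2 value divided by the square root of F. Scores and pairs used log2 CPM with a prior count of 2. Alternatives used DESeq2 1.42.0, limma 3.58.1, other scalings, filters, covariates and subsets of libraries. Named members are those called between title blocks, the 16 with the smallest p for the slope, the 6 most and 4 least variable at a mean CPM of at least 1, up to 4 called genes per pathway list and family members; others are said to be chosen later. One pathway result that this rule names is not reported here. Leaving out the 2 libraries that stood apart, and each library in the slope fit, was added after the data had been seen. No 2 libraries agreed within counting noise (chi-square per degree of freedom at least 4.03 over 496 pairs). The fits were tested on simulated data. Blood markers are not described further, since 1 of 4 was tested and it did not pass.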

Additional observations from a re-analysis of the deposited data

Results flagged for a closer look

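Within block B, single libraries lay far from the rest of their title-number set for 4 members, in 5 of 52 groups tested. The members tested were chosen from these same data, some for their large variation, so no chance rate is set beside this count. SEMA3A had 46.1 CPM in replicate 2 against at most 12.3 CPM in the other libraries with low numbers, and 25.6 CPM in replicate 8 against at most 13.5 CPM in the others with high numbers. NTN1 had 8.44 CPM in the same replicate 2, where the next library had 5.22 CPM. ROBO3 had 35.3 CPM in replicate 1, with the next at 24.3 CPM, and NTN4 had 31 CPM in replicate 14, with the next at 24.3 CPM. Replicate 2 is 1 of the 2 libraries that stood apart in hippocampal neuron markers, and replicate 8 had the highest choroid plexus marker sum, 420.04 CPM; the part of either in these values was not tested.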

How the results depend on the processing

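Between blocks 13 members passed. The count was 12 to 17 under other scalings, filters, DESeq2, limma-trend, the library total as a covariate or without block C, 9 with low title numbers only, 11 with number set as a covariate, 21 with the no-feature share as a covariate, 27 without the 2 libraries, 0 given the immature neuron score or the meningeal and fibroblast score as a covariate (with or without the 2 libraries), and 11 to 28 when 1 library was left out. The calls over all genes moved as well. Library totals in place of TMM changed the split of all genes from 1705 higher and 1282 lower to 2310 and 985, with a median of 0.035. The split was 2424 and 2015 with the no-feature share as a covariate, 2609 and 1977 with the library total as a covariate and 1943 and 1829 without the 2 libraries. Given the immature neuron score the difference changed sign for DRAXIN (-0.10, and -0.16 without the 2 libraries), EFNA2 (-0.0015, and -0.14) and NTN4 (-0.049), and without the 2 libraries for SEMA6B (0.033). None of these differences passed. The cause was not tested. Of high against low title numbers 0 members passed in every edgeR and limma fit, left-out libraries included, and 2 in DESeq2. For the slope 22 members passed, 20 to 28 with 1 library left out, 10 with block as a factor (14 without the 2 libraries), 13 with the meningeal and fibroblast score, 1 within block A and 8 within block B, where fewer libraries were fitted; the other fits gave 19 to 32. Over all genes the main slope fit called 3421 positive and 3469 negative, and 4077 and 3849 with the library total as a covariate. Within block A the slope changed sign for EFNB2 (-0.055), EPHB3 (-0.0043), SEMA3B (0.051), SEMA6C (-0.083) and UNC5A (0.081), and none of these slopes passed. Of the pairs 8 passed, 2 without the 2 libraries, 1 without the 2 animals farthest in the ligand, 0 within block A and 4 within block B. No paired analysis was possible because replicate numbers were given in order of deposition, as names. Depth limits EPHA1, at 1 to 8 counts a library, where a count of 0 would allow 3.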
